A study of Mus musculus with 16 samples.

Results

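The mRNAs of respiratory complexes II, III, IV and V and of cytochrome c were examined in mouse skeletal muscle by RNA sequencing. Members were taken by gene name (names that start with Sdh, Uqcr, Cox4 to Cox8, Atp5, mt-Co, mt-Cytb or mt-Atp, together with Cyc1 and Cycs, without Sds and Cox8b). The only measured value in the rule is a lower limit on counts, but the set was chosen with earlier results of these data known. The rule found 57 of 23235 gene names, and 56 of them passed a mean of 10 or more counts per mouse, as did 14869 gene names in all. The name left out was Cox6b2, the testis isoform of subunit 6b, with 5 to 16 counts per mouse and a mean of 9.19. The 56 members came from 209 deposited transcripts. They comprised the 4 subunits of complex II with 4 assembly factors (Sdhaf1 to Sdhaf4), 10 subunits of complex III, cytochrome c, 17 genes of complex IV, 17 subunits of complex V, and 3 names related to complex V (the coupling factor B gene Atp5s and the pseudogenes Atp5l-ps1 and Atp5l2-ps). Of the members, 50 are nuclear genes and 6 are encoded by mitochondrial DNA.

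All 16 mice were male C57BL/6 animals (C57BL/6J in the protocol), bought at 6 weeks of age, with 4 mice in each of 4 groups and 1 library per mouse. The control group received a normal diet. The HFD group was fed a diet with 60% fat for 8 weeks, and the HFD + RSV and HFD + metformin groups were given resveratrol (RSV, spelled reveratrol in the labels) or metformin for 6 weeks once the 8 weeks had passed. The sources used here do not give the metformin dose or the muscle that was taken, nor whether the sequenced mice were among those given insulin before death. The labels of the 4 HFD mice share the leading number 7, which no other mouse carries. What that number stands for is not given, and a cage or batch behind it could not be told apart from the diet. Replicate numbers only name the mice and link none across groups.

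The respiratory chain passes electrons from NADH and succinate to oxygen and uses the energy released to pump protons out of the mitochondrial matrix. Complex II (succinate dehydrogenase) feeds electrons from the citric acid cycle into ubiquinone, complex III passes them to the mobile carrier cytochrome c, complex IV (cytochrome c oxidase) reduces oxygen, and complex V (ATP synthase) lets protons flow back and makes ATP. The catalytic core of complex IV, cytochrome b of complex III and parts of the membrane sector of complex V are encoded in the mitochondrial genome, and complex II is wholly nuclear. Several subunits of complex IV exist as a ubiquitous isoform and a heart and skeletal muscle isoform, and oxidative fibres hold more of all of these complexes than glycolytic fibres.

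The total count per mouse was 20281801 to 34021101. The mitochondrially encoded members took 1.42% to 3.88% of it and the nuclear members 0.661% to 1.01%. Muscle genes were abundant in every library (Acta1 at 10356 to 20030.5 CPM, counts scaled to library size, and Ckm at 8704 to 16194 CPM), and although the labels name retinas in the extraction step, the retinal genes Gnat1 and Rcvrn had at most 2 counts in any mouse. Libraries differed in other tissue. The brown fat gene Ucp1 reached 409 CPM in control 3, 90.1 CPM in metformin 3 and 39.9 CPM in control 2, and was at most 11.9 CPM elsewhere. The slow fibre myosin Myh7 was at 2.81 CPM in control 1 and 457 to 918 CPM in the other control mice, against 2.71 to 59.4 CPM in the HFD mice. In pieces of whole tissue, fewer cells of a type and less RNA per cell cannot be told apart.

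Levels of different genes were compared as FPKM, which divides by transcript length. The mitochondrially encoded core of complex IV stood highest, with a mean over 16 mice of 10695 FPKM for mt-Co1, 8856 FPKM for mt-Co3 and 3745 FPKM for mt-Co2, and cytochrome b (mt-Cytb) followed with 2068 FPKM. The highest nuclear member was Atp5b, the catalytic beta subunit of ATP synthase, with 858 FPKM. The mean level of mt-Co1 was thus 12.5 times that of Atp5b. It was also 16.6 times that of mt-Atp6, whose transcript overlaps that of mt-Atp8, so that reads of the overlap cannot be assigned to one of them.

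In each complex the best expressed nuclear genes were Sdha, the flavoprotein subunit of complex II (243 FPKM), Uqcrc1, a core subunit of complex III (281 FPKM), Cox5a of complex IV (335 FPKM) and Atp5b. The carrier cytochrome c (Cycs) had 29.7 FPKM. Of the 50 nuclear members, 28 were above 100 FPKM and 7 were below 10 FPKM. The low ones included Sdhaf1 (2.54 FPKM), Sdhaf3 (2.64 FPKM), Cox4i2, the less abundant isoform of subunit 4 (1.06 FPKM), and Atp5g2, 1 of 3 genes for the c subunit of the ATP synthase rotor (1.47 FPKM). The complex II assembly factors lay between 2.54 and 13.7 FPKM, below each of the 4 subunits they help to assemble.

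**Figure D1:**
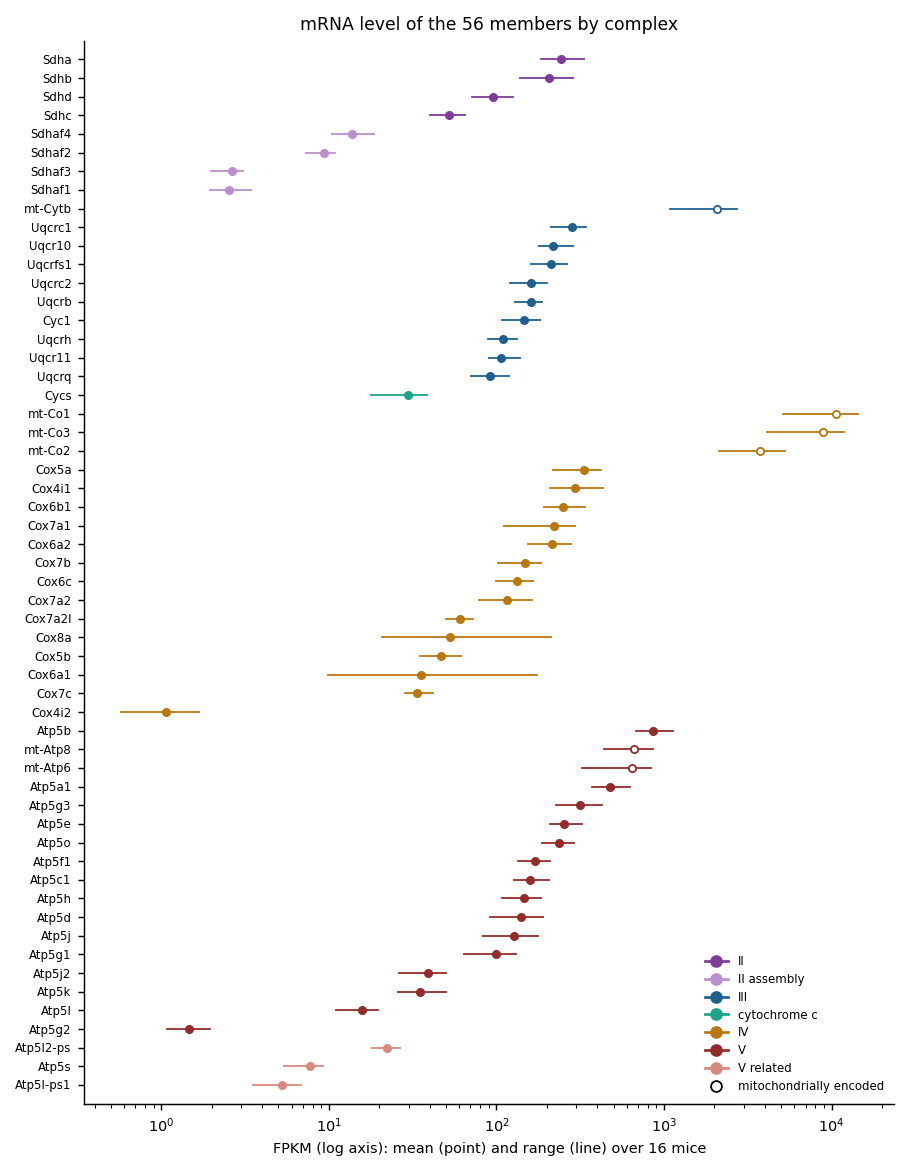
mRNA level of the 56 members on a logarithmic axis in FPKM, grouped by complex. Points are means and lines are ranges over 16 mice, and open points mark the 6 mitochondrially encoded genes. mt-Co1 (10695 FPKM) is highest and Cox4i2 (1.06 FPKM) lowest, and Cox6a1 and Cox8a have the widest ranges.

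Most members varied little between animals. The highest of the 16 CPM values of a gene was a median of 1.78 times the lowest, and it was under 2 times the lowest for 39 of 56 members. Only mt-Co3 (3.05 times), Cox8a (8.26 times) and Cox6a1 (14.8 times) reached 3 times or more.

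The HFD group was compared with the control group to ask what the diet did to these mRNAs. At an adjusted P under 0.05 (edgeR quasi-likelihood test, Benjamini-Hochberg over 14869 genes), 0 of 56 members differed, where 2.57% of all genes did, and DESeq2 called 2 (Cox6a1 and Cox8a, both lower). edgeR also called these 2 when metformin 3, which is in neither group, was left out of the shared fit. At an unadjusted P under 0.05, 3 members differed, 1 higher (Atp5s) and 2 lower (Cox6a1 and Cox8a), where 24.4% of all genes differed, and DESeq2 called 4. The median log2FC of the members was -0.00, against -0.02 for all genes. The 95% interval of the fold change lay within 2-fold for 54 of 56 members, where it did so for 74.7% of all genes. Apart from Cox6a1 and Cox8a, the largest fold change of any member was 1.33-fold. The CPM values of the groups did not overlap for 5 members, where they did not for 18.6% of all genes. These were Atp5e, Atp5s and Cox6a2, which were higher in every HFD mouse, and Cox6a1 and Cox8a, which were lower.

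By complex, the median differences between the HFD and control groups were small. Of the subunits of complex II, 1 of 4 was higher in the HFD group (median log2FC -0.06). In complex III, 3 of 9 nuclear subunits were higher (median -0.01), and in complex IV 4 of 14 (median -0.05). Complex V leaned the other way, with 12 of 15 nuclear subunits higher and a median of 0.09. The 6 mitochondrially encoded genes had a median of -0.05, with 2 higher.

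**Figure D2:**
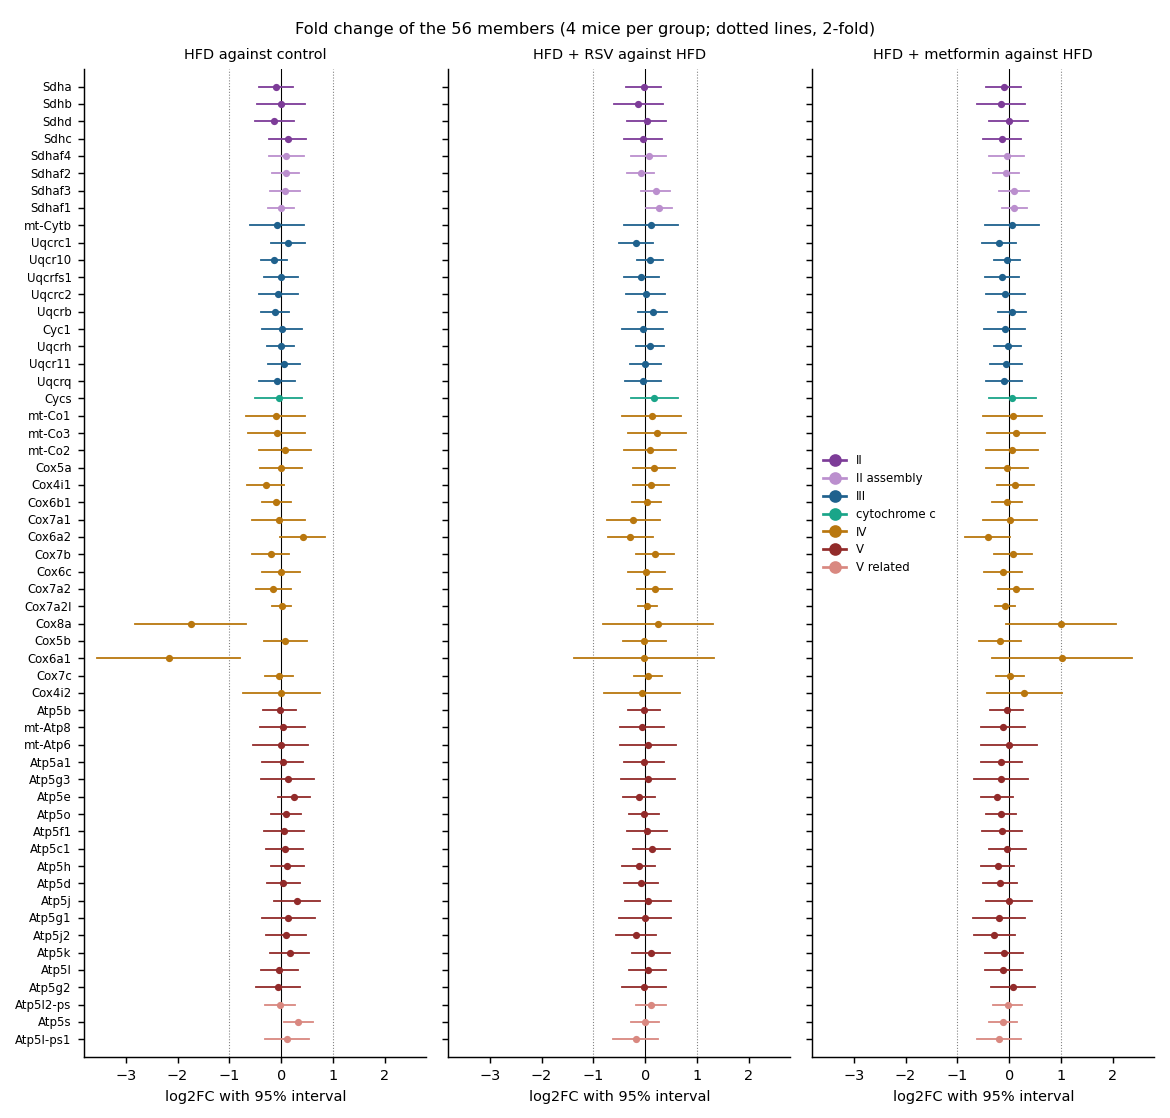
log2FC of the 56 members with 95% intervals for HFD against control, HFD + RSV against HFD and HFD + metformin against HFD, with 4 mice per group and dotted lines at a 2-fold difference. In the HFD against control panel only Cox6a1 (-2.17) and Cox8a (-1.75) lie outside the dotted lines, and with metformin both lie near 1 with intervals that cross 0.

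The largest differences were in a pair of ubiquitous subunits of complex IV. Cox6a1 encodes the form of subunit 6a found in most tissues, and Cox8a the corresponding form of subunit 8; both are small subunits that sit around the catalytic core. Cox6a1 was at 25.1, 31.5, 101 and 27.2 CPM in control 1 to 4, and at 7.74, 8.72, 7.73 and 16.9 CPM in HFD 1 to 4. Every HFD mouse was below every control mouse, control 3 was far above the rest, and HFD 4 was the highest of its group. The difference was 4.50-fold (log2FC -2.17, SE 0.64, 95% interval 1.73 to 11.7-fold lower), with an edgeR adjusted P = 0.0750.

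Cox8a followed a like pattern, with 33.3, 39.6, 116 and 36.3 CPM in the control group and 14.1, 14.6, 17.2 and 21.4 CPM in the HFD group. Again the groups did not overlap, with control 3 and HFD 4 as the highest of each. It was 3.36-fold lower (log2FC -1.75, SE 0.50, 95% interval 1.60 to 7.08-fold), with an adjusted P = 0.0699 by edgeR. Under the 25 alternative settings the log2FC of Cox6a1 was -2.52 to -1.34 and that of Cox8a -1.93 to -1.05, the unadjusted P was under 0.05 in all 25 for both, and the adjusted P passed in 4 for each (adjusted P 0.00646 to 0.247 and 0.00659 to 0.229).

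Most markers of brown fat were also lower in the HFD group. Ucp1, the uncoupling protein of brown fat, was at 11.9, 39.9, 409 and 3.12 CPM in the control mice, and at 0.519, 0.249, 0.265 and 1.06 CPM in the HFD mice. Adipoq, which encodes the hormone adiponectin of all fat cells, was at 104, 69.9, 353 and 143 CPM against 20.4, 11.2, 61.3 and 94.1 CPM. Control 3 was thus highest in its group for both markers and both subunits, and HFD 4 highest in its group for all 4. For Ucp1, as for both subunits, every HFD mouse was below every control mouse, whereas for Adipoq HFD 4 was above control 2. Of 6 brown fat markers, among them Cox8b and Ppargc1a, which muscle also expresses, 4 were lower in the HFD group at an unadjusted P under 0.05. By edgeR 2 fell at the adjusted P (Elovl3, a fatty acid elongase, log2FC -8.55, adjusted P = 0.0330, and Cidea, a lipid droplet protein, -6.31, adjusted P = 0.0460). DESeq2 called 4 of the 6 markers (Cidea, Elovl3, Otop1 and Ucp1). Their summed level was 134.6 to 933 CPM in the control mice and 96.2 to 172 CPM in the HFD mice. Much of that sum in the HFD mice was Cox8b, at 41.9 to 96.0 CPM in the control mice and 54.2 to 105 CPM in the HFD mice. Cidea was at 21.5 to 286 CPM against 0.778 to 2.39 CPM, without overlap. Elovl3 was at 0.781 to 49.1 CPM against 0 to 0.133 CPM, also without overlap, and had no counts in 3 HFD mice. Of 7 white adipocyte markers, 3 were lower at the unadjusted P and 0 at the adjusted P by edgeR or DESeq2, with a summed level of 1044 to 4725 CPM against 207.5 to 1034 CPM. In that list Lep, the gene of the fat cell hormone leptin, went the other way, with 93, 90, 272 and 508 counts in the control mice and 408, 104, 1326 and 822 counts in the HFD mice, and neither control 3 nor HFD 4 was highest for it.

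The part of fat in the Cox6a1 and Cox8a differences was not tested. Without control 3, Cox6a1 had a log2FC of -1.45 (adjusted P = 0.247 by edgeR) and Cox8a of -1.12 (adjusted P = 0.229). Without the 3 libraries with more than 30 CPM of Ucp1 (control 2, control 3 and metformin 3, a choice made after seeing the data), the log2FC was -1.34 for Cox6a1 (adjusted P = 0.129) and -1.05 for Cox8a (adjusted P = 0.0668). Slow fibre genes also differed between the HFD and control groups, though Myh7 in control 1 (2.81 CPM) was within the HFD range (2.71 to 59.4 CPM). All 9 slow fibre markers were lower at the unadjusted P (median log2FC -3.53), 0 of them passed the adjusted test by edgeR and 8 by DESeq2. The part of slow fibres in the Cox6a1 and Cox8a values was not tested. For the other markers the counts at the unadjusted P were 6 of 10 fast fibre genes higher, 0 of 6 muscle genes, 1 of 5 macrophage genes lower, 3 of 4 endothelial genes lower and 0 of 5 erythroid genes. The retinal gene Sag, at 0.184 to 1.14 CPM, was lower at the unadjusted P. None of these passed the adjusted test by edgeR. At its adjusted P, DESeq2 called 4 of the fast fibre genes (Atp2a1, Myh4, Pvalb and Tnnc2), the endothelial gene Pecam1 and Sag. It called 0 of the muscle, macrophage and erythroid genes.

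**Figure D3:**
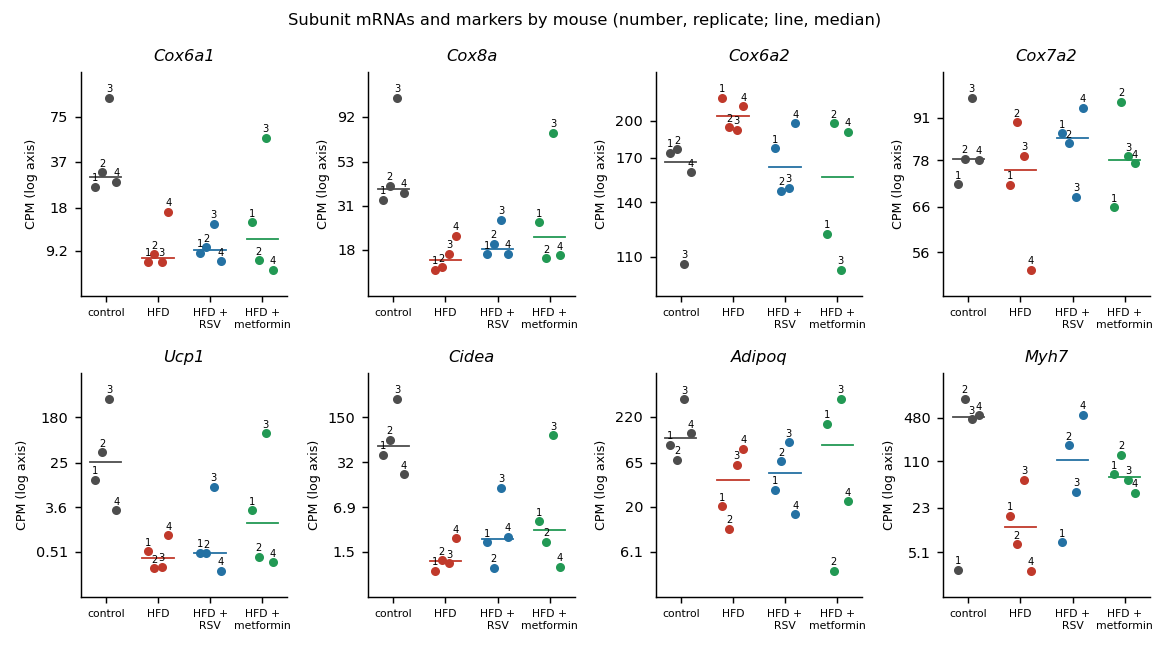
CPM of 4 complex IV subunits (top) and 4 markers (bottom) in each mouse on logarithmic axes whose ranges differ between panels; numbers are replicates and lines are medians. Control 3 is the highest control mouse for Cox6a1 (101 CPM), Cox8a (116 CPM), Ucp1 (409 CPM) and Adipoq (353 CPM), and metformin 3 stands out in the same panels, whereas for Cox6a2 both are the lowest of their groups.

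RefSeq promoter sequences (GRCm38.p6) were available for 36 of the 56 members. The 250 bases before the start site are shown for both genes, and for Cox7a2, the ubiquitous form of subunit 7a, whose mRNA showed no such difference between the groups. All are on the minus strand, and capitals mark matches on either strand to the NRF1 motif GCGCATGC or the ETS motif CCGGAAG, the sites of factors known to drive respiratory chain genes.
Cox6a1, chr5:115348959-115349208: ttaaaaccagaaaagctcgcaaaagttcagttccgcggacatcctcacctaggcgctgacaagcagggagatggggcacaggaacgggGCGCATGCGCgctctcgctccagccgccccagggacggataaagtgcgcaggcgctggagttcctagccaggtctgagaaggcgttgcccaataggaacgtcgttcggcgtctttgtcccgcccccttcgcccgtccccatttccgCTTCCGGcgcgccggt
Cox8a, chr19:7217617-7217866: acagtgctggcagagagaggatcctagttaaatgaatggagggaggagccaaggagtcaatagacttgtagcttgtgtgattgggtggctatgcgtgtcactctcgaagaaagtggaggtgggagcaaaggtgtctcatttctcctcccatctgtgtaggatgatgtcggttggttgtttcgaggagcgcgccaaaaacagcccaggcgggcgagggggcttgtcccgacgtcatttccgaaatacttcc
Cox7a2, chr9:79759854-79760103: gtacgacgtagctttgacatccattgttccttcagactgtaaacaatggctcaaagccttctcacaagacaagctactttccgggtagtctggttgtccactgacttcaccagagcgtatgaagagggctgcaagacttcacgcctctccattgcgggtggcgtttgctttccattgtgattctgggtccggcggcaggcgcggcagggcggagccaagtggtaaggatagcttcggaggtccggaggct

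In the Cox6a1 promoter, overlapping NRF1 matches on both strands began 162 and 160 bases before the start and an ETS match 16 bases before it. The windows of Cox8a and Cox7a2 held no match to the motifs searched. Among the 36 members with a promoter, the NRF1 letters occurred in 6 (16.7%), where 2.56% of all 27025 genes with a promoter held them, and the ETS letters in 11 (30.6%), where 7.83% of all genes did. A gene with several promoters was counted once, if any of them held the letters. The ERR letters AAGGTCA occurred in 2 members (5.56%, against 4.7% of all genes), the YY1 letters AAGATGGC in 1 (2.78%, against 1.83%) and the E-box letters CAGCTG, a muscle motif, in 1 (2.78%, against 14.7%). These matches describe the sequence and were set against no test.

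The other members of complex IV differed less. Cox6a2, the heart and skeletal muscle form of subunit 6a, was at 174, 177, 107 and 159.6 CPM in the control mice and at 221, 195, 193 and 213 CPM in the HFD mice. The groups did not overlap, and control 3 was the lowest mouse, the reverse of its place for Cox6a1. The log2FC was 0.41 (SE 0.20, edgeR adjusted P = 0.222). Cox4i1, the main form of subunit 4, was at 239, 314, 314 and 217 CPM against 200.1, 229, 193 and 258 CPM, with overlapping groups (log2FC -0.30, adjusted P = 0.272 by edgeR). Cox7b was at 155 to 196 CPM against 111 to 179.9 CPM (log2FC -0.21, edgeR adjusted P = 0.478), with HFD 4 below all other HFD mice. Cox7a1, the muscle form of subunit 7a, and its counterpart Cox7a2 had log2FC of -0.05 and -0.16, and Cox6b1 of -0.09. Cox8b, the heart and muscle form of subunit 8, which is outside the set, had a log2FC of 0.31 (adjusted P = 0.490 by edgeR).

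In complex II, the flavoprotein Sdha was at 767, 919, 944 and 732 CPM in the control mice and at 797, 901, 750.4 and 682 CPM in the HFD mice. The groups overlapped over most of their range (log2FC -0.10, 95% interval -0.44 to 0.23). The iron-sulfur subunit Sdhb had a log2FC of -0.01, and the membrane anchors Sdhc and Sdhd of 0.12 and -0.14. Of the assembly factors, which insert the flavin or the iron-sulfur clusters or hold subunits in place, 3 of 4 were higher, with a median of 0.08. In both sets 0 genes had an unadjusted P under 0.05.

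In complex III, Uqcrc1 was at 491, 594, 486 and 472 CPM in the control mice and at 545, 629, 519 and 550.3 CPM in the HFD mice. The groups overlapped, and HFD 2 was above all control mice (log2FC 0.13, 95% interval -0.19 to 0.46). The Rieske iron-sulfur protein Uqcrfs1 had a log2FC of -0.00, and the smallest P in the complex belonged to the accessory subunit Uqcr10 (log2FC -0.14, edgeR adjusted P = 0.495), followed by the accessory subunit Uqcrb (-0.12). Cytochrome c had a log2FC of -0.05, with 88.8, 109, 103 and 95.3 CPM against 105, 118, 102 and 57.6 CPM. HFD 4 had the lowest cytochrome c of all 16 mice, and the other HFD mice lay within or above the control range.

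In complex V, the epsilon subunit of the rotor stalk, Atp5e, was at 144, 159, 138 and 162 CPM in the control mice and at 167, 184, 164 and 201 CPM in the HFD mice. Every HFD mouse was above every control mouse, though by little, and the log2FC was 0.24 (SE 0.14, edgeR adjusted P = 0.307). The peripheral stalk subunit Atp5j had a log2FC of 0.30 (adjusted P = 0.373 by edgeR) with overlapping groups, at 63.0 to 109.9 CPM against 70.9 to 115 CPM. Atp5b was at 1632, 1938, 1827 and 1584 CPM against 1625, 1946, 1597 and 1657 CPM (log2FC -0.03). The c subunit genes Atp5g1, Atp5g2 and Atp5g3, whose products share 1 mature protein, had log2FC of 0.13, -0.06 and 0.12.

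Atp5s encodes factor B, a protein that couples the proton channel to ATP synthesis. It was at 10.3, 10.2, 10.7 and 8.22 CPM in the control mice and at 13.1, 12.2, 11.1 and 13.2 CPM in the HFD mice. All 4 HFD mice were above all control mice, and the log2FC was 0.33 (SE 0.13, adjusted P = 0.134 by edgeR). When only the most abundant transcript was used the log2FC was 0.12, and without control 4 or HFD 4 it was 0.25 and 0.30 with an unadjusted P above 0.05. The pseudogenes Atp5l-ps1 and Atp5l2-ps resemble the gene of membrane subunit g (Atp5l), so reads may be shared among them. Their log2FC were 0.11 and -0.02.

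RSV was compared with untreated HFD mice to ask whether it moved these mRNAs. At the adjusted P, edgeR called 0 of 56 members, where it called 0% of all genes, and DESeq2 also called 0. At an unadjusted P under 0.05, 1 member was called, where 4.78% of all genes were. The median log2FC was 0.02 over the members and 0.00 over all genes, 31 of 56 members were higher, and the 95% interval lay within 2-fold for 54 of 56, where it did so for 82.2% of all genes. For 0 of 56 members did the groups not overlap, where they did not for 4.22% of all genes. The medians by complex were -0.04 for complex II (1 of 4 higher), 0.13 for its assembly factors (3 of 4), 0.00 for complex III (5 of 9), 0.03 for complex IV (9 of 14), -0.02 for complex V (6 of 15) and 0.10 for the mitochondrially encoded genes (5 of 6).

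The member called was Sdhaf1, which helps to place iron-sulfur clusters in Sdhb. It was at 6.57, 6.60, 6.01 and 8.04 CPM in the HFD mice and at 7.55, 9.67, 7.33 and 8.13 CPM with RSV. RSV 2 was highest and the groups overlapped through HFD 4. The difference was 1.20-fold (log2FC 0.26, SE 0.12, edgeR adjusted P = 1.00), and without RSV 2 the log2FC was 0.17 and its unadjusted P above 0.05. Leaving out RSV 4, HFD 1, HFD 2 or HFD 3 gave a log2FC of 0.21 to 0.27, also with an unadjusted P above 0.05. In a fit of the compared groups alone Sdhaf1 was not called either (log2FC 0.27), and the member called at the unadjusted P was Cox6a2, which was lower (log2FC -0.28, edgeR adjusted P = 0.709), where 6.91% of all genes were called. Sdhaf3, at 7.72 to 12.9 CPM against 11.5 to 13.1 CPM, had a log2FC of 0.20.

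Cox6a1 was at 8.89, 9.76, 14.1 and 7.82 CPM with RSV, within the range of the untreated HFD mice (log2FC -0.02, 95% interval -1.37 to 1.33). Cox8a was at 17.0, 19.4, 26.1 and 17.2 CPM (log2FC 0.25, 95% interval -0.81 to 1.30). RSV 3 was the highest RSV mouse for both, and it was also the highest for Ucp1 (8.84 CPM, against 0.223 to 0.492 CPM in the others). The muscle form Cox6a2 had a log2FC of -0.29 (edgeR adjusted P = 1.00), Uqcrc1 of -0.18 and Cox7a1 of -0.23. For Cox7a1 the RSV mice split, with 125 and 113 CPM in RSV 1 and 4 and 61.7 and 51.3 CPM in RSV 2 and 3.

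Metformin was set against untreated HFD in the same way. At the adjusted P, 0 of 56 members were called by edgeR and by DESeq2, where edgeR called 0.0135% of all genes. At an unadjusted P under 0.05, 0 members were called, where 8.09% of all genes were. The median log2FC was -0.06 over the members and 0.02 over all genes. Of the members, 18 of 56 were higher. The 95% interval lay within 2-fold for 53 of 56, where it did so for 79.5% of all genes, and 0 members had groups without overlap, where 3.71% of all genes did. In complex II 0 of 4 subunits were higher (median -0.13), in complex III 1 of 9 (-0.07), in complex IV 8 of 14 (0.01), in complex V 1 of 15 (-0.15), and among the mitochondrially encoded genes 5 of 6 (0.06).

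These counts depended on single mice. Metformin 1 was above the 16-mouse median for 5 of the 50 nuclear members. Without it the median log2FC of the members was 0.01. In that fit 0 members were called at an unadjusted P under 0.05, where 7.24% of all genes were called. Metformin 2 was above the 16-mouse median for 47 of the 50, and without it the median log2FC was -0.19. Without metformin 2, 11 members were called at an unadjusted P under 0.05, 10 lower and 1 higher (Cox8a). In that fit 12.2% of all genes were called, and none of the 11 passed at the adjusted P by edgeR. The lower ones were led by the complex V genes Atp5j2 (log2FC -0.50), Atp5e (-0.38) and Atp5h (-0.38) and by Cox6a2 (-0.57). With all 4 mice, Atp5j2, membrane subunit f, was at 24.0, 50.5, 33.6 and 34.0 CPM against 41.6, 46.7, 43.0 and 42.3 CPM in the HFD mice (log2FC -0.29, adjusted P = 0.671 by edgeR). Only metformin 2 was above any HFD mouse.

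Cox6a1 was at 14.3, 7.89, 54.2 and 6.82 CPM with metformin and Cox8a at 25.3, 16.3, 75.9 and 16.8 CPM. Metformin 3 was far above its group for both, and metformin 1 came next. The log2FC against HFD were 1.02 (95% interval -0.33 to 2.36) and 1.00 (-0.06 to 2.06), with edgeR adjusted P = 0.664 and adjusted P = 0.624. Ucp1, at 3.14, 0.412, 90.1 and 0.323 CPM, and Adipoq, at 182, 3.67, 356 and 23.4 CPM, were also highest in metformin 3 and next highest in metformin 1. Without metformin 3 the log2FC of Cox6a1 was -0.10 and that of Cox8a was 0.21. Cox6a2 was at 122, 198, 104 and 191 CPM (log2FC -0.42, adjusted P = 0.620 by edgeR), with metformin 1, 3 and 4 below all HFD mice.

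The treated groups were also set against the controls, which are the same 4 mice as above. For RSV against control, edgeR called 0 members at the adjusted P, where it called 0.00673% of all genes, and DESeq2 called 1 (Cox6a1). At the unadjusted P, 4 members were called, where 16% of all genes were. Cox6a1 (log2FC -2.19, adjusted P = 0.175) and Cox8a (-1.50, adjusted P = 0.199) were lower, while Atp5s (0.33, adjusted P = 0.247) and Sdhaf1 (0.26, adjusted P = 0.295) were higher, all by edgeR. Without control 3, 2 members were called, where 9.8% of all genes were.

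For metformin against control, edgeR and DESeq2 called 0 members at the adjusted P, where edgeR called 0% of all genes, and at the unadjusted P edgeR called 0 members, where 9.56% of all genes were called. Cox6a1 had a log2FC of -1.15 (edgeR adjusted P = 0.592) and Cox8a of -0.75 (edgeR adjusted P = 0.662). Without metformin 3 these became -2.27 (edgeR adjusted P = 0.0550) and -1.54 (edgeR adjusted P = 0.0681), and without metformin 2 there were 5 members called at the unadjusted P, all lower, where 8.23% of all genes were called in that fit. Without metformin 1, 1 member was called, which was higher, where 8.34% of all genes were called. For metformin against RSV both tools called 0 members at the adjusted P, where edgeR called 0% of all genes, and 0 members at the unadjusted P by edgeR, where 4.71% of all genes were called. There, 7 of 56 members were higher with metformin, with a median log2FC of -0.09 against 0.00 for all genes. That median was 0.02 without metformin 1 and 0.00 without RSV 4. In those fits 0 members were called, where 4.55% and 3.99% of all genes were. Without metformin 2, 8 were called, all lower, where 8.28% of all genes were called in that fit.

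Isoforms of 1 subunit take the same place in the complex, and their ratio within a library needs no scaling between libraries. The ratio of Cox6a2 to Cox6a1, in FPKM, was 5.85, 4.73, 0.890 and 4.95 in the control mice and 24.1, 18.9, 21.0 and 10.6 in the HFD mice. It was higher in each HFD mouse than in any control mouse, and control 3 was the only mouse in which the ubiquitous form exceeded the muscle form. The difference of the means on the log scale was 5.37-fold (log2 2.43, exact two-sided permutation test, P = 0.0286, the smallest P that 4 mice against 4 allow). With RSV the ratio was 16.8, 12.7, 8.92 and 21.3, which was 4.27-fold above control (exact permutation P = 0.0286) and 0.796 times HFD (exact permutation P = 0.400). With metformin it was 7.19, 21.2, 1.62 and 23.6, with metformin 3 nearest to control 3, and it was 2.63-fold above control (exact permutation P = 0.200). In 36 such tests the smallest adjusted P was 0.343. An adjusted P under 0.05 was possible only if most of these tests reached the smallest P, so the adjusted values decide little.

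The other isoform pairs differed less. Cox4i2, a form of subunit 4 found mainly in lung, was rare beside Cox4i1 in every mouse, and only metformin against control had groups without overlap for their ratio (1.41-fold, exact permutation P = 0.0286). The muscle form Cox7a1 exceeded Cox7a2 in all 16 mice. The ratio of the pair was 2.21, 1.12, 1.13 and 1.82 with RSV and 1.65 to 2.98 in the HFD mice (0.696 times, exact permutation P = 0.200). Of the c subunit genes, Atp5g1 was above Atp5g2 by medians of 67.5, 72.4, 68.9 and 60.8 times and Atp5g3 by 195, 223, 233 and 194 times in the control, HFD, HFD + RSV and HFD + metformin groups. Cox6b2 was too rare for its ratio to Cox6b1 to be read.

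**Figure D4:**
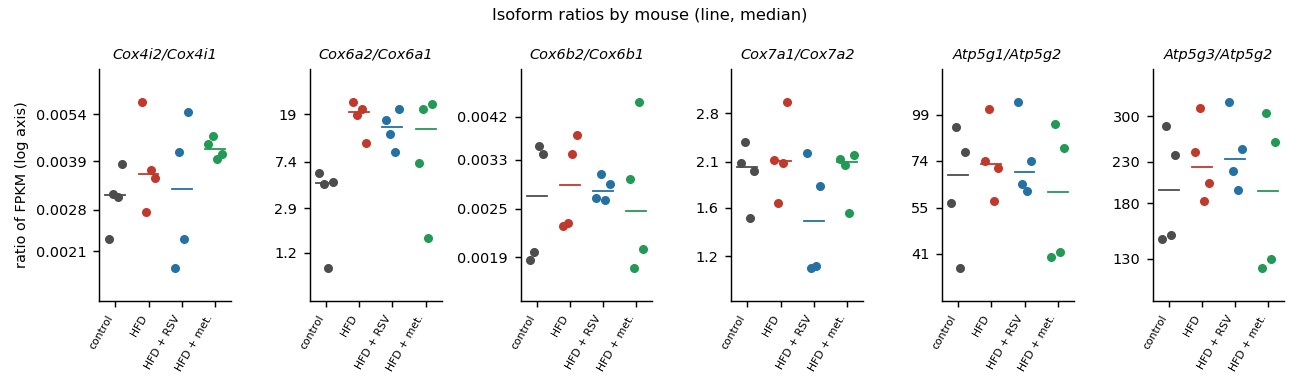
Ratio of FPKM of 6 isoform pairs in each mouse, on logarithmic axes whose ranges differ between panels; lines are group medians. Cox6a2 over Cox6a1 separates the HFD mice (10.6 to 24.1) from the control mice (0.890 to 5.85), and the groups overlap for the other pairs apart from Cox4i2 over Cox4i1 with metformin against control.

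The 6 mitochondrially encoded members moved together from mouse to mouse. mt-Co1, the catalytic subunit of complex IV, was at 18195, 23604, 18002 and 18203 CPM in the control mice and at 21204, 23783, 18634 and 8883 CPM in the HFD mice. HFD 4 had the lowest value of all 16 mice and the other HFD mice were each above at least 3 of the 4 control mice. The same held for HFD 4 with mt-Co2, mt-Co3, mt-Cytb and mt-Atp6. For mt-Atp8 it had 112 CPM, and only metformin 1, with 99.5 CPM, was lower. The summed counts of these genes were 1.78 times those of the nuclear members in HFD 4 and 3.57 to 3.87 times in the other HFD mice. HFD 4 also had the largest share of mitochondrial ribosomal RNA (0.119% of its counts, against 0.00867% to 0.0693% in the other mice), and the part of ribosomal RNA removal in its values was not tested.

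Leaving out HFD 4 turned the direction of the median of these genes, though mt-Co2 and mt-Atp8 were higher than control in both fits. Against control, the 6 genes had log2FC of -0.11 to 0.07 with all mice (median -0.05) and 0.12 to 0.26 without HFD 4 (median 0.15). Against HFD, their median went from 0.10 to -0.10 with RSV and from 0.06 to -0.16 with metformin. The standard errors were 0.20 to 0.27, so that none of these values passed the test with all mice. Without HFD 4 none passed either, with an unadjusted edgeR P of 0.203 to 0.579 in HFD against control. With RSV, mt-Co1 was at 20821, 19094, 15786 and 23190.0 CPM, and with metformin at 14418, 26452, 18619 and 16456 CPM. Both groups overlapped the control range, and metformin 2 was above it.

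Mice of 1 group differed in the level of whole complexes. As a score for each complex, log2 CPM was centred per gene and averaged over the genes of the complex. Metformin 2 had the highest score of the 16 mice for complexes II (0.36), III (0.28) and V (0.32), for cytochrome c (0.46) and for the mitochondrially encoded genes (0.47). Metformin 1 had the lowest for complexes II (-0.44), III (-0.31), IV (-0.28) and V (-0.31). The mice of 1 treatment thus held both ends of the range. For complex IV control 3 was highest (0.42), but at 0.08 when Cox6a1 and Cox8a were left out and 12 genes remained.

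The number of the 50 nuclear members above their 16-mouse median was 9, 41, 27 and 26 in the control mice, 30, 42, 15 and 24 in the HFD mice, 41, 25, 5 and 47 with RSV and 5, 47, 6 and 10 with metformin. The counts ranged from 5 to 47 within the metformin group and within the RSV group, and from 9 to 42 over the control and HFD mice. Myh2, the myosin of the oxidative fast fibres, was at 1337, 5201, 898 and 4125 CPM in the control mice, 848, 1483, 1021 and 743 CPM in the HFD mice, 3204, 323, 808 and 3755 CPM with RSV and 876, 3404, 1504 and 830.0 CPM with metformin. In each group the mouse with the most members above the median was also the mouse with the most Myh2, and the part of the fibres sampled in these levels was not tested.

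**Figure D5:**
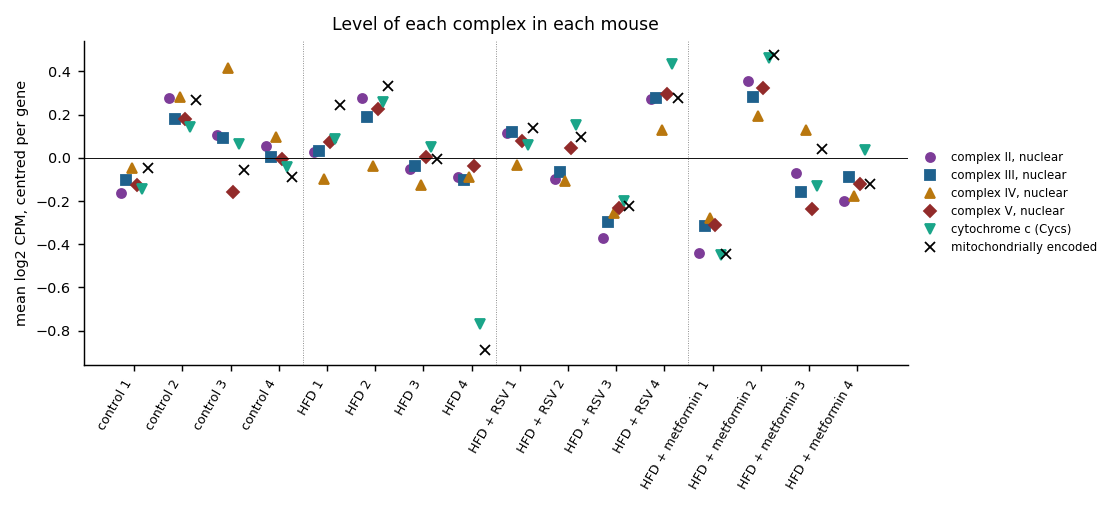
Score of each complex in each mouse, as the mean over its genes of log2 CPM centred per gene, with 0 as the mean of all 16 mice. Metformin 2 and metformin 1 hold the highest and lowest nuclear scores of complexes II, III and V, control 3 is the highest in complex IV (0.42), and HFD 4 is low in cytochrome c (-0.77) and the mitochondrially encoded genes (-0.89).

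Genes that build or control the complexes were counted beside them. Of 6 assembly factors of complex III, 3 were higher with HFD at the unadjusted P, and Uqcc1, which acts in the making of cytochrome b, rose at the adjusted P by edgeR. DESeq2 called 2, Uqcc1 and Uqcc2 (log2FC 0.39, edgeR adjusted P = 0.0980). Uqcc1 was at 42.4, 45.5, 50.6 and 54.9 CPM in the control mice and at 81.4, 101, 72.1 and 69.4 CPM in the HFD mice, with no overlap (log2FC 0.74, SE 0.17, edgeR adjusted P = 0.0397). The adjusted P passed in 16 of 25 alternatives and was lost without any of the 4 HFD mice, without control 2, 3 or 4, with the most abundant transcript and without the libraries with the most Ucp1 (log2FC 0.62 to 1.02 in all, adjusted P at most 0.176). With metformin Uqcc1 was at 40.6 to 61.5 CPM (log2FC -0.58 against HFD, adjusted P = 0.569 by edgeR).

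Of 5 genes for assembly or inhibition of ATP synthase, Atpaf1, the chaperone of the beta subunit, rose in the HFD group. It was at 12.0, 7.70, 7.09 and 5.41 CPM in the control mice and at 27.1, 32.0, 28.2 and 12.6 CPM in the HFD mice. The lowest HFD mouse, HFD 4, was just above the highest control mouse (log2FC 1.64, SE 0.35, edgeR adjusted P = 0.0367). The adjusted P passed in 17 of 25 alternatives, with a log2FC of 1.49 to 1.89 in all, and was lost (adjusted P at most 0.210) without HFD 1, 2 or 3, without control 2, 3 or 4, with the most abundant transcript and without the libraries with the most Ucp1. With RSV it was at 5.59 to 19.8 CPM (log2FC -0.97 against HFD, adjusted P = 1.00 by edgeR) and with metformin at 20.1 to 26.9 CPM (log2FC -0.09).

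The remaining lists moved less. These counts at the unadjusted P stand beside the 24.4% of all genes called in HFD against control. Of 24 assembly factors of complex IV, 4 were higher and 1 lower in the HFD group at the unadjusted P, 0 at the adjusted P by edgeR and 2 by DESeq2, which were Coa7 (log2FC 0.43, edgeR adjusted P = 0.0595) and the copper-loading factor Cox11 (0.47, edgeR adjusted P = 0.0661). Of 13 regulators of mitochondrial genes, 1 was higher at the unadjusted P, the transcription factor Yy1 (log2FC 0.19, edgeR adjusted P = 0.122), and it alone was called by DESeq2. Of 14 citric acid cycle enzymes 0 were called at either P by either tool, with a median log2FC of -0.05. Of 44 subunits of complex I, 33 were higher in the HFD group (median 0.07), 2 at the unadjusted P (Ndufa13 and Ndufc1), 0 at the adjusted P by edgeR and 1 by DESeq2 (Ndufa13). With RSV against HFD, 1 gene of these 6 lists was called at the unadjusted P (Atpaf1), where 4.78% of all genes were. With metformin against HFD, 1 factor each of complexes III and IV, 1 regulator and 2 subunits of complex I were called, where 8.09% of all genes were. In both comparisons 0 genes of these lists were called at the adjusted P by both tools.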

How the data were processed

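Libraries from 16 muscles were read from the transcript tables that the authors deposited, which hold expected counts and FPKM values per transcript. The submitters' processing notes name fastp, HISAT2 and GRCm38, and the study's methods name StringTie. The labels give Trizol and a TruSeq RNA kit, the study a column kit and removal of ribosomal RNA. In the mRNA table (82388 transcripts) 4 records broken over lines were joined, and transcripts were summed to 23235 gene names. Counts were rounded and genes with a mean of at least 10 counts were kept (14869). An edgeR 4.0.16 fit over all 4 groups (TMM, robust quasi-likelihood, R 4.3.3) gave each comparison, with Benjamini-Hochberg adjustment over all genes kept, and was tested on simulated data. CPM are counts per 1e6 of the TMM-scaled library size. DESeq2 1.42.0 was an alternative, as were other scalings, filters, transcripts and sets of mice. Ratios of isoforms used the deposited FPKM with no pseudocount and exact two-sided permutation tests (SciPy 1.17.1). Promoters and motifs were read with Python 3.11.15.

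Genes named were the 2 members of each complex with the smallest P in the diet and treatment comparisons, the member of each complex with the highest mean FPKM, every mitochondrially encoded member, both members of isoform pairs and the 2 genes of each assembly, regulator and enzyme list with the smallest P; marker genes and others named were added after values were seen. The members and lists were chosen with earlier results of these data known. Each sample was taken as 1 mouse from its label, and the P values measure the spread between these samples, the site of sampling included.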

Additional observations from a re-analysis of the deposited data

Results flagged for a closer look

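In each group of 4 mice the highest and lowest mouse were set against the other 3 by Dixon's test, over 192 groups of values (48 quantities in 4 groups). A mouse that stood apart was found in 16 of them, and chance alone gives about 1 in 20. All values are CPM unless a ratio is named, and no cause was tested.

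Cox6a1 was at 101 in control 3 (25.1 to 31.5 in the other control mice), at 16.9 in HFD 4 (7.73 to 8.72 in the others) and at 54.2 in metformin 3 (6.82 to 14.3). Cox8a was at 116 in control 3 (33.3 to 39.6) and at 75.9 in metformin 3 (16.3 to 25.3). Each of these 3 mice was also the highest of its group for Ucp1 and Adipoq.

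Control 2 stood above the other control mice for mt-Co1 (23604, against 18002 to 18203), mt-Co2 (3222, against 2602 to 2679.9), Uqcrc1 (594, against 472 to 491) and Cox7a1 (128, against 97.7 to 103). It was also the deepest library and the one with the most Myh7.

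The counts of mitochondrially encoded members over those of nuclear members gave a ratio of 1.78 in HFD 4 (3.57 to 3.87 in the other HFD mice) and of 3.87 in RSV 2 (3.61 to 3.64 in the other RSV mice). Sdhc was at 224 in HFD 2 (185 to 189), Sdhaf4 at 15.5 in RSV 4 (9.77 to 10.4) and Atp5s at 11.5 in RSV 3 (12.6 to 12.7). The pseudogene Atp5l-ps1 was at 1.35 in control 1 (2.04 to 2.13) and at 1.34 in RSV 1 (1.91 to 1.99).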

How the results depend on the processing

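The number of members called at the adjusted P, 0 for HFD against control, was 2 with DESeq2, 2 with a fit of the compared groups alone, 2 with the 12 control, HFD and HFD + RSV mice, and 0 to 2 when mice were left out in turn (2 without metformin 3). It was 2 at an unadjusted P under 0.05 with an absolute log2FC above 1, and 3 without that limit. For HFD + RSV against control it was 1 with DESeq2, 1 with the 12 mice and 0 to 1 when mice were left out (1 without metformin 3), 2 at the unadjusted P with the log2FC limit and 4 without it. For HFD + RSV against HFD the unadjusted P gave 1. Relative log expression scaling, mitochondrial genes taken out, other filters and the most abundant transcript left each of these counts at 0. Leaving out mice gave a log2 difference of 1.79 to 2.70 for the Cox6a2 to Cox6a1 ratio in HFD against control, 1.46 to 2.37 in HFD + RSV against control, and 0.36 to 0.61 for Cox4i2 to Cox4i1 in HFD + metformin against control, and 3 mice against 4 cannot go below an exact P of 0.0571. Of the results for single genes and member medians, 46 gained and 21 lost an unadjusted P under 0.05 with an alternative, and 5777 did neither. A change of sign was counted as a reversal only if the unadjusted P was under 0.05 in either fit, and 0 were found. Signs did change where neither fit had such a P. In HFD against control, mt-Co1 had a log2FC of -0.11 with all mice and 0.12 without HFD 4. The alternative without the libraries with the most Ucp1 was chosen after seeing the data. No paired analysis was possible because the labels give no replicate numbers that groups share. With 4 mice per group and a biological coefficient of variation of 0.259, the SE of the log2FC in HFD against control was 0.15 for Atp5b, the highest nuclear member, and 0.35 for Cox4i2, the lowest.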
